A study of Ambystoma mexicanum with 20 samples.

Results

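The 200 transcripts described here were those whose level in the axolotl limb epidermis was most elevated at 8 days post-amputation (dpa) over both 0 and 3 dpa. They were chosen by measured values: of 180605 transcripts in the table, 20918 had at least 2 TPM (transcript abundance scaled to the same total in each library) in both 8 dpa epidermis samples treated with DMSO. These were ranked by the smaller of 2 log2 ratios, 8 over 0 dpa and 8 over 3 dpa, each taken on the mean TPM plus 0.1, and the first 200 were kept. The epidermis samples at 0 dpa and those treated with DMSO at 3 and 8 dpa therefore made the choice, and their values are given as a description without a test.

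RNA of the epidermis and of the underlying soft tissue (ST) of regenerating Ambystoma mexicanum limbs was sequenced in 20 samples. Each tissue had 5 groups of 2 replicates: juveniles at 0 dpa, MS-275 at 3 dpa, DMSO at 3 dpa, MS-275 at 8 dpa and DMSO at 8 dpa. MS-275, an inhibitor of class I histone deacetylases, was injected at 25 mM into the stump beneath the wound epidermis every other day, with DMSO as the vehicle, and the labels list the 0 dpa samples under DMSO as well. A replicate was a pool of both limbs of a pair of animals, and the tissues of a condition were separated from the same limbs, although the labels do not state which epidermis and ST libraries shared a pool. The ST samples are thus other tissue, but not other animals, than those that made the choice.

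The wound epidermis closes the amputated stump, thickens into a signalling epithelium and is needed for the blastema, the mass of progenitors from which the limb regrows. It also holds immune and secretory cells and releases proteases that loosen the matrix under it. Guanylate-binding proteins and related genes are switched on by interferon in epithelial and immune cells. Histone deacetylases remove acetyl groups from histones and are mostly linked with reduced transcription.

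The study's shortened annotation lists gave 68 of the 200 transcripts a gene symbol, with 50 distinct symbols, and 3 others a fragment of a description. A further 79 were listed without a symbol, and 50 were in neither list as read here. Only part of each list was read, so a transcript counted here as having no symbol may have one in the full lists. Symbols were assigned by the study through sequence similarity to UniProt entries and are printed in capitals. The named members fell mainly into 4 groups: interferon response (13 transcripts), matrix and matrix remodelling (12), leukocytes and inflammation (7), and mucins and other secreted mucosal proteins (6). The list behind the interferon group also held antigen processing genes such as TAP1 and PSMB8, which were not members. There were 12 symbols with several member transcripts, with 5 each for GBP1 and MMP13. How alike the sequences of such transcripts were, and how the estimator divided reads between them, was not examined.

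Epidermal keratin KRT12 had 471 to 1753 TPM in the 10 epidermis libraries and 1.17 to 325 TPM in the ST libraries, while the summed skeletal muscle markers had 0.61 to 143 TPM in the epidermis and 1654 to 25608 TPM in ST. The epidermis libraries also held connective tissue RNA, with 114 to 1388 TPM of COL1A1. Between 72566 and 92979 transcripts per library were above 0 TPM. Sequencing depth cannot be read from TPM, so values carry no counting error here.

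In control epidermis the 200 transcripts were low at 0 and 3 dpa and high at 8 dpa, as the choice required. Their median was 0.53 and 0.215 TPM in the 2 replicates at 0 dpa, 0.46 TPM in each replicate with DMSO at 3 dpa, and 11.3 and 10.5 TPM with DMSO at 8 dpa. The label of transcripts that appear only at 8 dpa did not hold literally, since 44 and 22 of them had 2 TPM or more in the 0 dpa libraries and 40 and 43 in the DMSO libraries at 3 dpa. The last transcript kept was MDK-A, a midkine growth factor, with means of 1.99, 14.8 and 126.6 TPM at 0, 3 and 8 dpa. The first left out was IRF1, an interferon regulatory factor, with means of 18.6, 15.2 and 158.7 TPM.

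**Figure D1:**
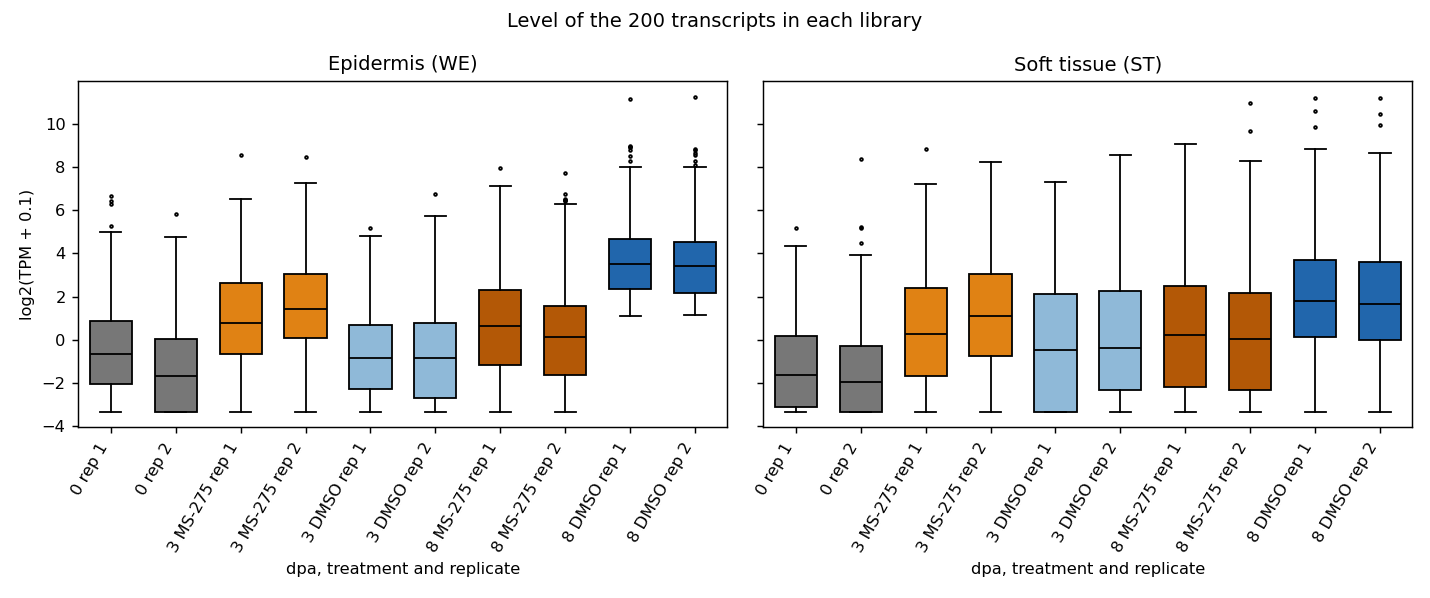
Level of the 200 transcripts in each library on the log2(TPM + 0.1) scale, with the epidermis on the left and ST on the right; boxes span the quartiles with the median as a line, whiskers reach 1.5 times the box height and points are transcripts beyond them. The epidermis boxes with MS-275 at 8 dpa (medians of 1.45 and 0.99 TPM) lie far below those with DMSO at 8 dpa (11.3 and 10.5 TPM), and the boxes with MS-275 at 3 dpa lie above those with DMSO at 3 dpa.

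With MS-275 the transcripts were higher than with DMSO at 3 dpa and lower at 8 dpa. At 3 dpa their median was 1.62 and 2.56 TPM with MS-275, against 0.46 TPM in each DMSO library. Both MS-275 replicates lay above both DMSO replicates for 149 members, or 74.5%, against 34.7% of the 20918 transcripts that could have been chosen. The median log2 ratio of MS-275 to DMSO at 3 dpa was 1.75 over the members and 0.16 over those 20918. Because the same DMSO libraries made the choice, which favours members that were low in them at 3 dpa and high in them at 8 dpa, nothing was tested in these comparisons.

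At 8 dpa the median was 1.45 and 0.99 TPM with MS-275, against 11.3 and 10.5 TPM with DMSO. Both MS-275 replicates lay below both DMSO replicates for 190 members, against 76.9% of all 20918 transcripts, and 1 member, MMP13 at rank 45, had both above. At least 4-fold lower means with MS-275 were found for 155 members (77.5%), against 8.49% of the 20918. The median log2 ratio of MS-275 to DMSO at 8 dpa was −2.92 over the members and −0.84 over the 20918. Set against DMSO at 8 dpa, the earlier MS-275 libraries at 3 dpa were lower too, with a median log2 ratio of −2.21 over the members.

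Markers of other cell types moved between these epidermis libraries as well. The summed leukocyte markers (6 of 8 listed genes had a paired transcript) had 704 and 731 TPM with MS-275 at 8 dpa, against 897 and 814 TPM with DMSO at 8 dpa. LYZ made up most of this sum, with 523 and 588 TPM with MS-275, against 664 and 593 TPM with DMSO. PTPRC, CTSS and CSF1R were also lower with MS-275 without overlap, and LCP1 overlapped. These values are unscaled TPM. Median ratio factors, which scale libraries to a common median ratio, were 0.865 and 0.83 with MS-275 and 1.44 and 1.34 with DMSO at 8 dpa. On TPM divided by them, the leukocyte sum, LYZ and LCP1 were higher with MS-275 without overlap. PTPRC then overlapped, while CTSS and CSF1R stayed lower without overlap. MPO was higher, with 6.14 and 5.93 TPM with MS-275, against 0.91 and 0.89 TPM with DMSO. The summed skeletal muscle markers (6 of 6 paired) had 78.7 and 143 TPM with MS-275 at 8 dpa, against 0.61 and 1.02 TPM with DMSO at 8 dpa, where MYL1 was listed at 0 in both libraries. MUC4, a membrane mucin listed as a marker of small secretory cells, had 2.79 and 1.99 TPM with MS-275 at 8 dpa, against 12.4 and 15.7 TPM with DMSO at 8 dpa. FCGBP, another marker on that list, had 2.07 and 2.81 TPM with MS-275, against 1.03 and 1.18 TPM with DMSO at 8 dpa. The remaining paired marker on it, NOS2, is itself a member and is given below. ALAS2, the heme synthesis enzyme of erythrocytes, had 80.3 and 86.0 TPM with MS-275, against 18.8 and 20.5 TPM with DMSO at 8 dpa. These markers moved in opposite directions, and MUC4, but not FCGBP, moved with the mucosal members. At 3 dpa the leukocyte sums were 549 and 687 TPM with MS-275, against 440 and 509 TPM with DMSO, and the muscle sums were 57.1 and 95.3 TPM with MS-275, against 5.81 and 52.0 TPM with DMSO. On TPM divided by median ratio factors, the leukocyte sums at 3 dpa overlapped between treatments. Summed epidermis markers (7 of 10 paired) had 929 and 1315 TPM with MS-275, against 1896 and 2044 TPM with DMSO at 8 dpa. KRT12 made up most of this sum, with 779 and 1145 TPM with MS-275, against 1642 and 1753 TPM with DMSO. On TPM divided by median ratio factors, both this sum and KRT12 overlapped between treatments at 8 dpa. KRT5 alone of the paired markers was higher with MS-275, with 22.6 and 24.6 TPM, against 13.5 and 9.49 TPM. The part of these markers in the levels of the members was not tested. In bulk tissue fewer cells of a type and less RNA per cell cannot be told apart.

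**Figure D2:**
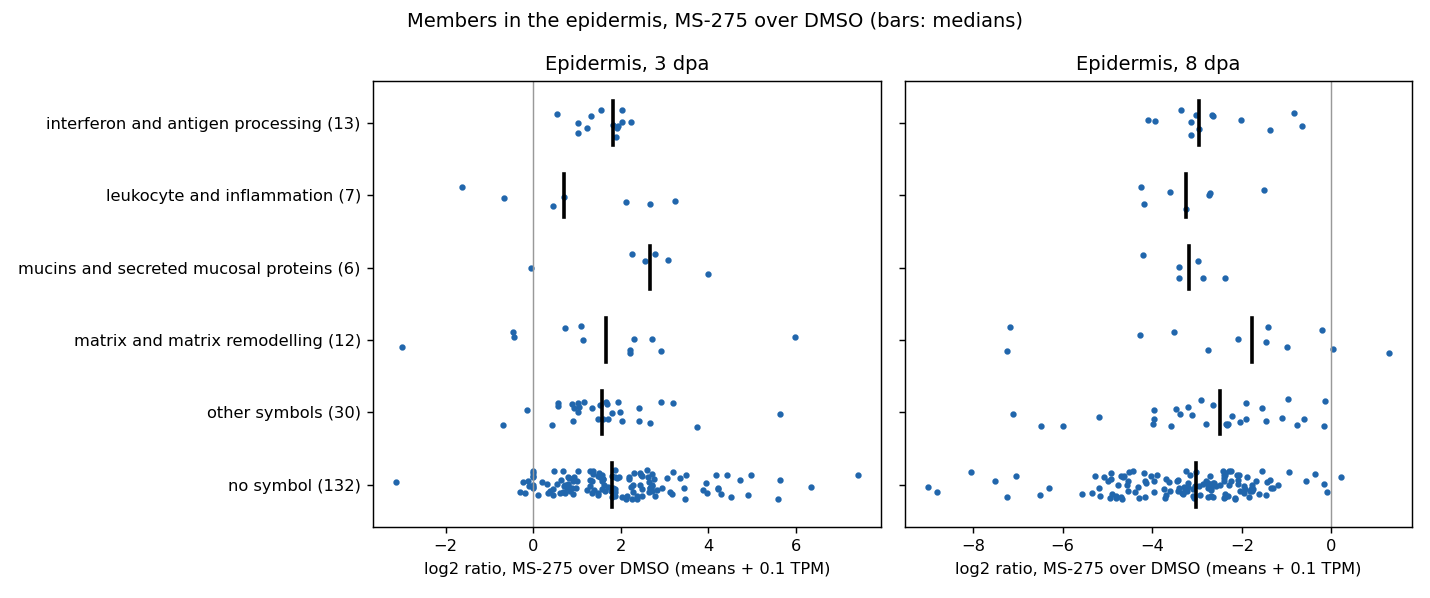
Log2 ratio of the mean TPM plus 0.1 with MS-275 to that with DMSO in the epidermis, for each of the 200 transcripts (points) by group, with the number of transcripts in brackets and the group median as a bar; the left panel is 3 dpa and the right panel 8 dpa. Medians at 3 dpa lie above 0 and those at 8 dpa below 0 in every group, and of the 4 groups of named members the matrix group has the median nearest 0 at 8 dpa (−1.78).

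The interferon group was led in level by GBP1, an interferon-induced GTPase. With MS-275 its highest-ranked transcript (rank 46) had 29.4 and 42.5 TPM at 3 dpa and 18.6 and 14.8 TPM at 8 dpa. The same transcript had 8.44 and 7.62 TPM at 0 dpa, 6.80 and 10.6 TPM with DMSO at 3 dpa, and 165 and 180 TPM with DMSO at 8 dpa. MS-275 values thus lay above those of DMSO at 3 dpa and far below them at 8 dpa, without overlap at either time.

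CXCL10, a chemokine that interferon induces and that attracts T cells, had 7.97 and 6.71 TPM with MS-275 at 8 dpa, against 137 and 118 TPM with DMSO at 8 dpa. At 3 dpa it had 5.70 and 9.26 TPM with MS-275 and 5.13 TPM in each DMSO library, and one 0 dpa library had 14.9 TPM. BATF2, an interferon-inducible transcription factor, had 1.74 and 1.46 TPM with MS-275 at 8 dpa, against 14.9 and 15.0 TPM with DMSO. With MS-275 at 8 dpa CXCL10 lay within the range of the control libraries at 0 and 3 dpa. BATF2 lay above them (0.88 and 0.58 TPM at 0 dpa, 0.46 and 0.77 TPM with DMSO at 3 dpa). It lay between its 2 values with MS-275 at 3 dpa, 1.23 and 1.93 TPM.

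ACOD1, the enzyme that makes itaconate in activated macrophages, had the ratio of MS-275 to DMSO at 8 dpa nearest 1 in the group. Its transcript at rank 170 had 54.6 and 37.0 TPM with MS-275 at 8 dpa, against 73.2 and 71.8 TPM with DMSO at 8 dpa, and 19.1 and 26.1 TPM with MS-275 at 3 dpa, against 5.61 and 9.74 TPM with DMSO at 3 dpa. HFE, a class I-like protein of iron handling, LACC1, an enzyme of macrophages, and BATF3, a transcription factor of dendritic cells, completed the group. In all 13 transcripts of the group both MS-275 replicates lay above DMSO at 3 dpa and below it at 8 dpa, with median log2 ratios of 1.83 and −2.96. Of the 20918, 34.7% lay above at 3 dpa and 76.9% below at 8 dpa. The 37 other transcripts paired with the interferon list, which were not members, had medians of 0.96 and −2.11 at these times. Of these 37, 29 lay above at 3 dpa and 35 below at 8 dpa. Symbols came from the study's shortened lists of transcripts it had called on these same samples. Values of other transcripts of a list, here and below, are thus not independent evidence of a direction.

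In the leukocyte group, NOS2, the inducible nitric oxide synthase, was almost absent outside DMSO at 8 dpa. Its transcript at rank 97 had 0.23 and 0.26 TPM with MS-275 at 8 dpa, against 7.17 and 5.16 TPM with DMSO. IL1R2, the decoy receptor of interleukin-1, had 5.30 and 2.52 TPM with MS-275 at 8 dpa, against 10.6 and 12.1 TPM with DMSO at 8 dpa, and 3.92 and 3.67 TPM against 0.11 and 0.91 TPM at 3 dpa. GIMAP4, a GTPase of lymphocytes, and CLEC2D, a C-type lectin of leukocytes, were the others. All 7 transcripts were lower with MS-275 at 8 dpa without overlap, by a median log2 ratio of −3.26, while 76.9% of the 20918 were lower without overlap. Of the 56 other transcripts paired with the leukocyte list, which were not members, 45 were lower without overlap, and their median was −1.03.

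Of the 4 groups, the mucosal member transcripts had the highest median log2 ratio of MS-275 to DMSO at 3 dpa (2.67, 6 transcripts). All 6 were at least 4-fold lower with MS-275 at 8 dpa, against 8.49% of the 20918. The 39 other transcripts paired with the mucosal list, which were not members, had medians of 0.10 and −1.36 at these times, and 10 of them were at least 4-fold lower with MS-275 at 3 dpa. MUC5B, a gel-forming mucin, had 2.3 and 7.41 TPM with MS-275 at 3 dpa and 3.31 and 0.76 TPM with MS-275 at 8 dpa at rank 22. It had 0.11 and 0 TPM at 0 dpa, 0.18 and 1.06 TPM with DMSO at 3 dpa, and 19.7 and 25.2 TPM with DMSO at 8 dpa. MUC5AC, another gel-forming mucin, UMOD (uromodulin), ODAM and LYPD2 made up the rest. Sums over all transcripts of a symbol did not all follow the members at 3 dpa. The UMOD sum was lower with MS-275, at 76.7 and 60.3 TPM, against 383 and 781 TPM with DMSO. For MUC5B the sums overlapped, with 6.26 and 10.5 TPM with MS-275, against 9.21 and 33.2 TPM with DMSO. Those of MUC5AC and ODAM were higher with MS-275 without overlap.

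Single genes outside these groups followed the same order of groups or departed from it. SFTPC, named for surfactant protein C, had 5 and 1.11 TPM with MS-275 at 8 dpa, against 441 and 432 TPM with DMSO at 8 dpa, but its replicates at 0 dpa had 79.0 and 1 TPM. PRSS27, a serine protease of squamous epithelia, had 0.24 and 0.25 TPM with MS-275 at 8 dpa at rank 28, against 12.5 and 12.2 TPM with DMSO, and STC2, the secreted glycoprotein stanniocalcin-2, had 0.71 and 0.28 TPM against 9.34 and 9.32 TPM.

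GNMT, which methylates glycine and so uses up S-adenosylmethionine, was close in TPM between treatments at 8 dpa, where the median log2 ratio over the 20918 was −0.84. Median ratio factors, which scale libraries to a common median ratio, were 0.865 and 0.83 with MS-275 and 1.44 and 1.34 with DMSO. On TPM divided by them, GNMT was higher with MS-275 at 8 dpa without overlap. It had 373 and 357 TPM with MS-275 at 3 dpa, against 25.2 and 28.8 TPM with DMSO at 3 dpa, and 248 and 209 TPM with MS-275 at 8 dpa, against 252 and 254 TPM with DMSO at 8 dpa. The level with MS-275 at 3 dpa was thus above that of DMSO at 8 dpa. This was so in both replicates for 3 of the 200 members (1.5%), against 12.2% of the 20918. The choice itself favours members that were high with DMSO at 8 dpa.

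The chemokines CCL4, CCL3L1 and CCL24, which attract leukocytes, were higher at 8 dpa than at 3 dpa in their MS-275 means, and lower there than with DMSO at 8 dpa, in each of 4 transcripts. CCL4 at rank 159 had 13.2 and 8.59 TPM with MS-275 at 8 dpa, against 32.3 and 27.6 TPM with DMSO at 8 dpa, and 6.94 and 6.93 TPM with MS-275 at 3 dpa, against 3.33 and 2.73 TPM with DMSO at 3 dpa. PIGR, the receptor that carries antibodies across mucosal epithelia, had 8.23 and 8.87 TPM with MS-275 at 3 dpa, against 1.12 and 1.94 TPM with DMSO, and 2.85 and 2.57 TPM with MS-275 at 8 dpa, against 14.2 and 13.5 TPM with DMSO. The 132 transcripts without a symbol had median log2 ratios of MS-275 to DMSO of 1.80 at 3 dpa and −3.03 at 8 dpa. At 8 dpa 127 of them were lower without overlap, against 76.9% of the 20918.

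In the matrix group, the collagenase MMP13 was above its 0 dpa level with both treatments. At rank 61 it had 48.5 and 24.4 TPM at 3 dpa and 70.0 and 56.4 TPM at 8 dpa with MS-275. Its level was 0.90 and 0.99 TPM at 0 dpa, 4.52 and 10.1 TPM with DMSO at 3 dpa, and 125 and 127 TPM with DMSO at 8 dpa. At rank 88 its 8 dpa replicates overlapped, with 130 and 91.1 TPM for MS-275 against 107 and 148 TPM for DMSO. At rank 45 it had 19.7 and 7.83 TPM with MS-275, against 6.05 and 5.09 TPM with DMSO at 8 dpa. KERA, the proteoglycan keratocan, had 2.76 and 2.48 TPM with MS-275 at 8 dpa, against 13.9 and 8.97 TPM with DMSO, and 7.32 and 4.25 TPM with MS-275 at 3 dpa, against 0.73 and 0.63 TPM with DMSO. The 12 transcripts had log2 ratios of MS-275 to DMSO at 8 dpa from −7.24 to 1.29, the widest range of the 4 groups.

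**Figure D3:**
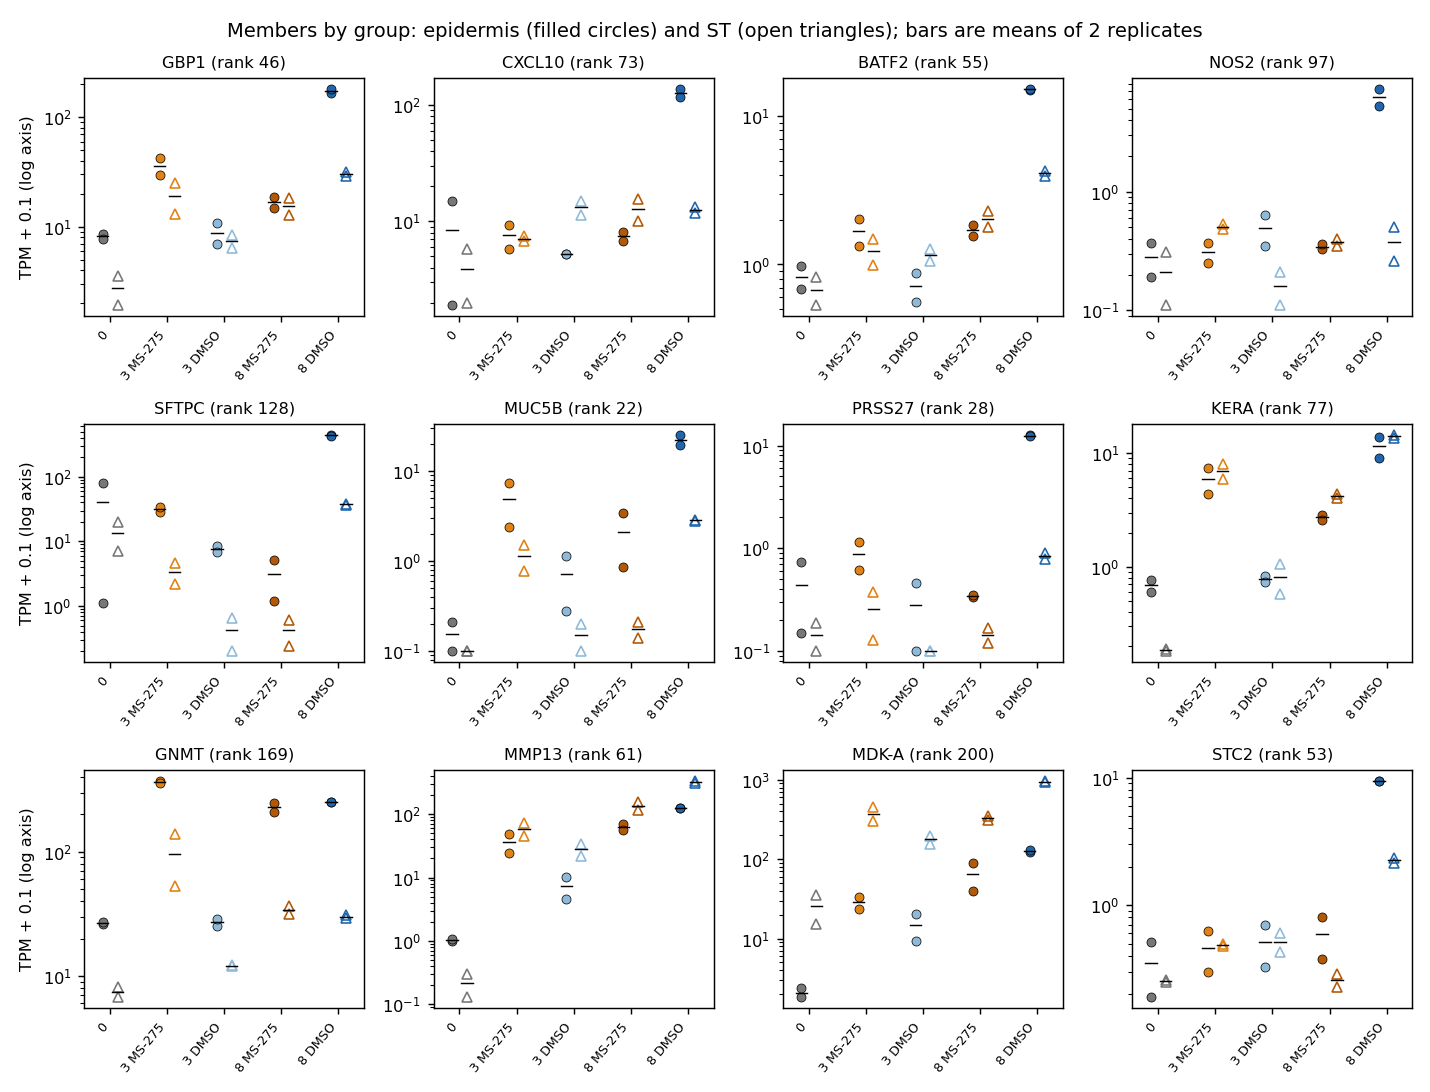
TPM plus 0.1 on a log axis for 12 member transcripts in the 5 groups of each tissue; filled circles are epidermis replicates, open triangles are ST replicates and bars are means of 2 replicates. GBP1 at rank 46 has 18.6 and 14.8 TPM with MS-275 and 165 and 180 TPM with DMSO in the epidermis at 8 dpa, whereas GNMT has 248 and 209 TPM with MS-275 and 252 and 254 TPM with DMSO, and MDK-A is lower in the epidermis than in ST.

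For several symbols the chosen transcript was a minor or exchanged form, and the sum over the symbol did not follow its member. Of the 50 symbols, 29 also had paired transcripts that were not members. Summed over all transcripts paired with a symbol, 28 of 50 reached the score of the last member (3.09), 43 had a score of at least 1 and 5 had a score below 0, which were POSTN, RPS20, MUC5AC, UMOD and ATPAF1. Summing was chosen after the values were seen.

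RPS20, a protein of the small ribosomal subunit, showed an exchange between transcripts. Its member at rank 24 had 2270.5 and 2419.9 TPM with DMSO at 8 dpa and 22.2 to 106 TPM in the other 8 epidermis libraries, while another RPS20 transcript had 3.94 and 9.75 TPM with DMSO at 8 dpa and 2189 to 3606 TPM in the other 8. The same exchange stood in ST, where the member had 2321 and 2300.1 TPM with DMSO at 8 dpa and 1995 TPM in replicate 2 of MS-275 at 8 dpa. In that MS-275 library the other transcript had 526 TPM, and in replicate 1 the member had 154 TPM. The symbol's sum was lower at 8 dpa than at 0 and 3 dpa in control epidermis, with a score of −0.40.

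POSTN, the matricellular protein periostin, had 28.99 and 9.54 TPM in its member (rank 2) with DMSO at 8 dpa, or 9.65% of the symbol's TPM, while its most abundant transcript had 169 and 120 TPM at 8 dpa, against 549 and 342 TPM at 0 dpa. LUM, the proteoglycan lumican, had 2.57 and 2.40 TPM in the member, against 275 and 200 TPM in its other transcript. KAZALD1, a secreted Kazal-domain protein of the matrix, had 0.02 and 0 TPM in its member (rank 3) with MS-275 at 8 dpa, against 15.35 and 16.36 TPM with DMSO, but another transcript had 152 and 104 TPM with MS-275, against 80.2 and 75.6 TPM with DMSO at 8 dpa.

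CTSK, the collagen-degrading cathepsin K, had 2 members that differed from each other under MS-275. Its transcript at rank 89 had 0.29 and 0.18 TPM with MS-275 at 8 dpa, against 50.7 and 50.1 TPM with DMSO, and in none of the 8 MS-275 libraries of either tissue did it pass 1.1 TPM. Its transcript at rank 143 had 19.6 and 22.1 TPM with MS-275, against 19.4 and 21.3 TPM with DMSO. Replicates of some members were split, with 2 TPM or more in one replicate and 0.2 TPM or less in the other. In at least 1 of the 7 groups that did not make the choice, 27 members (13.5%) were split, against 3.04% of the 20918. Of these 27, 20 were in neither annotation list, and whether another transcript took their place was not examined.

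**Figure D4:**
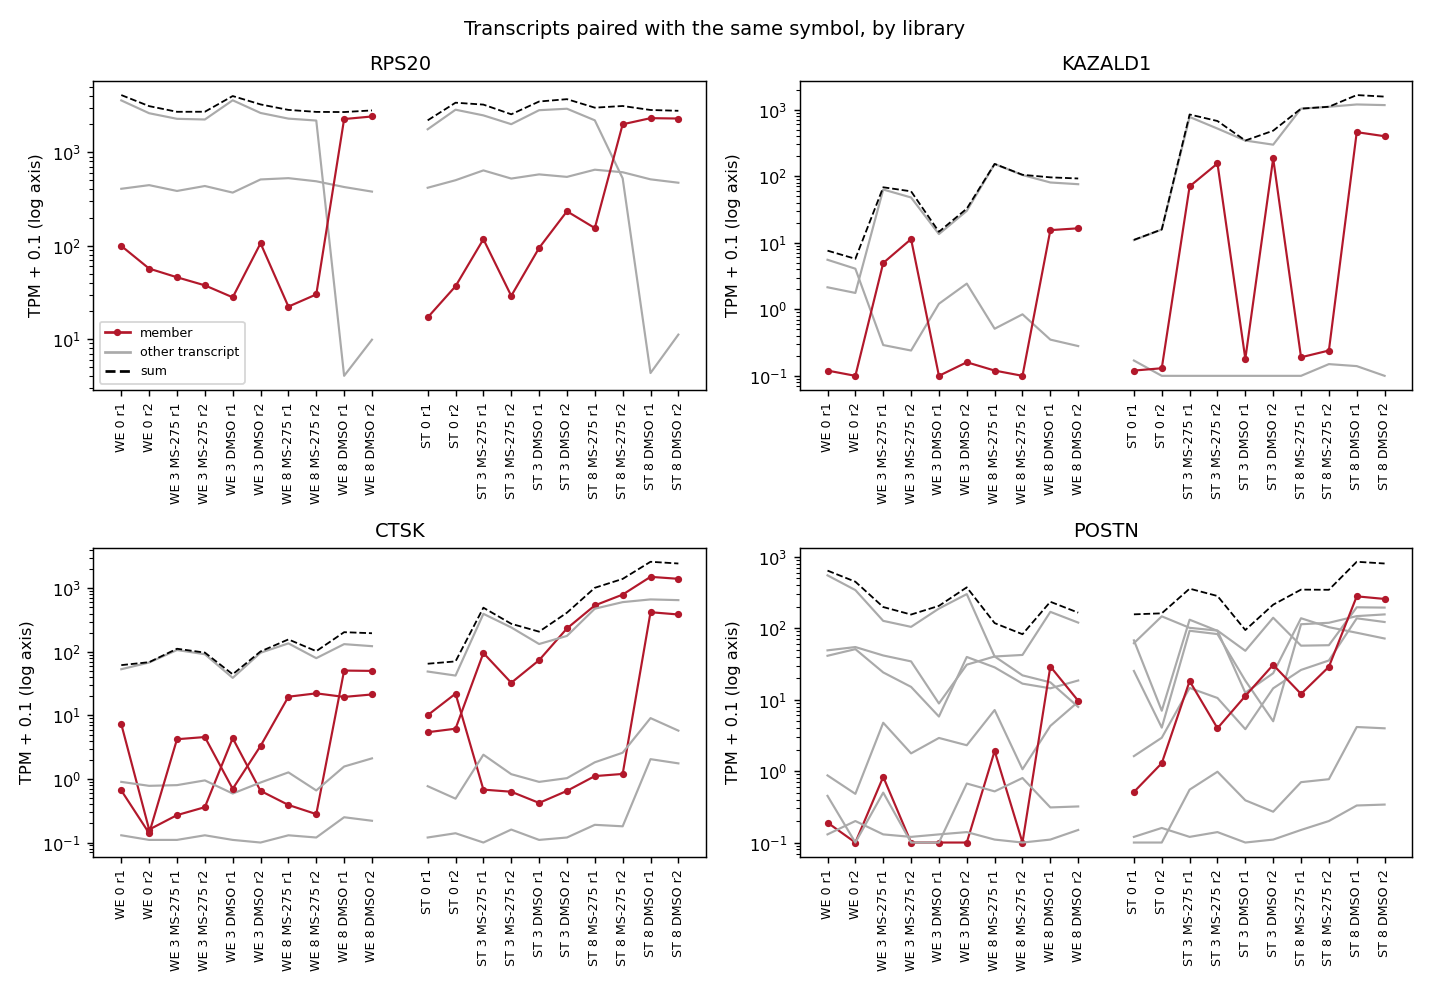
TPM plus 0.1 on a log axis in each of the 20 libraries (r1 and r2 are replicates) for all transcripts paired with RPS20, KAZALD1, CTSK and POSTN; member transcripts are red, others grey and their sum dashed. For RPS20 the member and one other transcript change places in both DMSO libraries at 8 dpa of each tissue and in part in replicate 2 of ST with MS-275, while the sum of 3 transcripts stays between 2199 and 4101 TPM.

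Whether the transcripts also changed with time under the inhibitor was tested between the 4 MS-275 libraries of the epidermis, none of which made the choice, in a model of all 10 epidermis libraries. Few did. In limma on log2(TPM + 0.1), with Benjamini-Hochberg adjustment over all 88139 transcripts tested and a call at an adjusted p below 0.05, 189 members passed the filter of more than 0 TPM in 5 or more of the 10 libraries. None was higher with MS-275 at 8 dpa than with MS-275 at 3 dpa, against 0.0113% of all transcripts tested. Lower calls were made for 5 (2.65%, against 0.025%). At an unadjusted p below 0.05, 13 members were higher and 49 lower. The median log2 change over the members tested was −0.45, and that over all transcripts was −0.13. The median log2 ratio of the means was −0.39 over the 200 members and −0.27 over the 20918. Both 8 dpa replicates lay below both 3 dpa replicates for 83 members (41.5%, against 49.6% of the 20918) and above them for 32 (16%, against 15.9%). At least 4-fold lower means were found for 17% of the members, against 1.4% of the 20918.

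Of the 5 that fell, KAZALD1 at rank 3 had 0.02 and 0 TPM with MS-275 at 8 dpa, against 4.86 and 11.2 TPM with MS-275 at 3 dpa (log2 change −6.10, SE 0.50, adjusted p = 0.0332 in limma). Summed over its 3 transcripts, KAZALD1 did not fall, with 152.55 and 104.7 TPM at 8 dpa, against 67.95 and 59.07 TPM at 3 dpa. VUBI at rank 160 had 5.22 and 4.13 TPM, against 14.1 and 16.0 TPM (−1.67, SE 0.19, adjusted p = 0.0488). The other 3 had no symbol and changes of −6.86 to −4.51. Leaving out MS-275 replicate 1 at 3 dpa left 1 of the 5 calls, and leaving out any other of the 4 libraries left none. GBP1 at rank 46, at 18.6 and 14.8 TPM against 29.4 and 42.5 TPM (−1.08, SE 0.26), did not pass (adjusted p = 0.193). An exact permutation test of 2 against 2 samples could not have gone below p = 0.333.

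At 8 dpa the members were compared between tissues under each treatment. With DMSO their median log2 ratio of the epidermis to ST was 2.02, against 0.13 over the 20918 transcripts, and this was not tested because these epidermis libraries made the choice. Both epidermis replicates lay above both ST replicates for 154 members, against 44.9% of the 20918, and below them for 27, against 32.3%. Matrix transcripts stood on the other side, with a median of −1.13 and 7 of 12 below ST, while all 7 leukocyte transcripts and 12 of 13 interferon transcripts were above.

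With MS-275 at 8 dpa both epidermis replicates lay above both ST replicates for 53 members (26.5%, against 25.5% of the 20918). They lay below them for 58 (29%, against 48.3%). None of these libraries made the choice, so the members were also tested between the tissues. In a limma model of all 20 libraries, 187 members passed the filter, of which 15 were higher in the epidermis than in ST (8.02%, against 4.89% of all transcripts tested) and 8 were lower (4.28%, against 7.17%). The median was −0.05 over these members and −0.34 over all transcripts. On TPM divided by median ratio factors, which set the median of all transcripts to −0.01, 22 members were higher and 7 lower, against 6.33% and 3.88% of all transcripts. With a pseudocount of 1 the balance turned, to 9 higher and 12 lower members.

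Those higher in the epidermis included GNMT with 248 and 209 TPM, against 31.2 and 36.4 TPM in ST (log2 difference 2.75, SE 0.31, adjusted p = 8.4e-05 in limma). Mucosal transcripts gave 3 of the 15 calls: MUC5B at rank 22, MUC5AC and UMOD. PRSS27 at rank 67 was higher as well, a call lost when same-numbered epidermis and ST libraries were blocked, and so was PEG10, derived from a retrotransposon, with 1.04 and 1.10 TPM in the epidermis, while it was listed at 0 in both ST libraries.

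Of the 8 that were lower in the epidermis than in ST, 3 had no symbol, with differences of −7.24 to −1.38. The other 5 were POSTN, CTSK, RPS20, MDK-A and CCL24. CTSK at rank 143 had 19.6 and 22.1 TPM in the epidermis, against 538 and 796 TPM in ST (−4.97, SE 0.78, adjusted p = 0.000892), and POSTN had 1.81 and 0 TPM, against 11.9 and 28.7 TPM (−5.41, SE 1.26, adjusted p = 0.0121). MDK-A had 89.1 and 39.4 TPM, against 347 and 308 TPM (−2.46, SE 0.45, adjusted p = 0.0027), and CCL24, a chemokine of eosinophils, had 21.2 and 22.4 TPM, against 93.6 and 126 TPM. RPS20, with the exchange of transcripts given above, was also called. Of the matrix list outside the members, 50 of 88 transcripts were lower in the epidermis and 3 higher, and of the mucosal list 29 of 38 were higher and 2 lower. Without replicate 1 of the epidermis or of ST, 6 higher and 7 lower calls were left, which again turned the balance. There were 12 higher and 5 lower without replicate 2 of the epidermis, and 6 higher and 3 lower without replicate 2 of ST.

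The 5 comparisons within ST that follow share samples with one another. In ST with DMSO most of the members were also higher at 8 dpa than before amputation. Their median was 3.33 and 3.08 TPM with DMSO at 8 dpa, against 0.225 and 0.155 TPM at 0 dpa. Of 182 members tested among 87546 transcripts, 128 were higher at 8 than at 0 dpa (70.3%, against 27.5% of all transcripts) and none was lower (against 2.44%), nor was any lower at an unadjusted p below 0.05. The median log2 change was 2.86 over the members and 0.96 over all transcripts. On TPM divided by median ratio factors, which set the latter to 0.05, 73 members were higher (40.1%, against 6.92%) and none lower (against 6%), with a median of 1.80. On unscaled TPM both 8 dpa replicates lay above both 0 dpa replicates for 183 of the 200 members (91.5%), against 76.2% of the 20918. At least 4-fold higher means were found for 73% of the members, against 26% of the 20918.

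Among members with a symbol, KAZALD1 and MMP13 had the largest called rises. MMP13 at rank 61 had 335 and 310 TPM with DMSO at 8 dpa, against 0.20 and 0.03 TPM at 0 dpa (log2 change 10.67, SE 0.42, adjusted p = 1.7e-05 in limma), and all 5 MMP13 members were called. The POSTN member had 279 and 257 TPM, against 0.41 and 1.19 TPM (8.37, SE 0.81, adjusted p = 0.000275), and the KAZALD1 member had 458 and 398 TPM, against 0.02 and 0.03 TPM (11.74, SE 2.52, adjusted p = 0.00997). The sums over their transcripts rose less. POSTN had 851 and 805 TPM, against 156 and 161 TPM at 0 dpa, and KAZALD1 had 1652 and 1566 TPM, against 10.9 and 15.7 TPM. A member without a symbol, at rank 27, had 396 and 304 TPM with DMSO at 8 dpa, while it was listed at 0 in both 0 dpa libraries (11.76, SE 2.75, adjusted p = 0.0143). With DMSO at 8 dpa both ST replicates lay above both epidermis replicates for 7 of 12 matrix transcripts and below them for 2. Of the 12 matrix transcripts, 10 were called higher in ST at 8 than at 0 dpa, against 27.5% of all transcripts tested. These calls came from MMP13, CTSK, KERA, KAZALD1 and POSTN.

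Every one of the 13 interferon transcripts, which carried 7 symbols, rose in ST on unscaled TPM, by a median of 2.67. The median over all transcripts tested was 0.96, and 27.5% of them were called higher. GBP1 at rank 46 had 31.4 and 28.8 TPM with DMSO at 8 dpa, against 3.47 and 1.80 TPM at 0 dpa (3.53, SE 0.40, adjusted p = 0.000518). CXCL10 had 13.2 and 11.6 TPM, against 5.74 and 1.87 TPM (1.88, SE 0.47, adjusted p = 0.0182), where control epidermis had 137 and 118 TPM. On TPM divided by median ratio factors, the CXCL10 replicates in ST at 8 and 0 dpa overlapped. Beyond the members, 31 of the 37 other transcripts paired with the interferon list rose and none fell, and of the matrix list 71 of 90 rose and 4 fell. Symbols came from the study's shortened lists of transcripts it had called on these samples, so these counts are not independent evidence of a direction.

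Between 8 and 3 dpa in ST with DMSO, 34 members were higher (18.7%, against 1.74% of all transcripts tested) and none lower (against 0.174%), nor at an unadjusted p below 0.05. Their median change was 1.58, against 0.47 over all transcripts. On TPM divided by median ratio factors 9 were higher and none lower, against 0.168% and 0.0788%, with a median of 1.08 over the members. On unscaled TPM both 8 dpa replicates lay above both 3 dpa replicates for 159 of the 200 members (79.5%), against 64.8% of the 20918. At rank 89, CTSK had 420 and 387 TPM with DMSO at 8 dpa, against 0.32 and 0.55 TPM with DMSO at 3 dpa (9.59, SE 0.37, adjusted p = 0.000152), and SFTPC had 37.0 and 37.4 TPM, against 0.10 and 0.56 TPM (6.68, SE 0.74, adjusted p = 0.0128). The CTSK sum over 5 transcripts rose less, with 2614 and 2456 TPM at 8 dpa, against 208 and 413 TPM at 3 dpa.

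MUC5B at rank 22, with 2.79 and 2.70 TPM at 8 dpa against 0 and 0.10 TPM at 3 dpa, and MMP13 at rank 11, with 11.6 and 10.3 TPM against 0.11 and 0.30 TPM, were also among the largest rises. By group, 9 of 12 matrix, 5 of 13 interferon, 2 of 6 mucosal and 0 of 7 leukocyte transcripts were called, against 1.74% of all transcripts tested. Transcripts that share a symbol are counted separately here. The matrix calls came from MMP13, CTSK, FREM2 and KERA, the interferon calls from GBP1 and BATF2, and the mucosal calls from MUC5B alone. Without either replicate of DMSO at 8 dpa 1 call was left, which was CTSK at rank 89, and without replicate 1 of DMSO at 3 dpa 10 were left.

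Epidermal markers moved in both directions in ST between 0 and 8 dpa with DMSO. KRT12 had 8.41 and 7.05 TPM in ST at 0 dpa, 1.17 and 3.32 TPM with DMSO at 3 dpa, and 98.3 and 99.1 TPM with DMSO at 8 dpa. CDH1 had 88.7 and 85.8 TPM at 0 dpa, against 48.3 and 51.9 TPM with DMSO at 8 dpa. KRT5 was lower at 8 dpa too, with 0.62 and 8.33 TPM at 0 dpa, against 0.18 and 0.21 TPM. Of 8 epidermis marker transcripts tested, 3 were called higher and 2 lower at 8 than at 0 dpa, and 3 higher and 0 lower at 8 than at 3 dpa. The summed epidermis markers had 115 and 118 TPM at 0 dpa, 56.3 and 56.2 TPM at 3 dpa, and 196 and 200 TPM at 8 dpa. On TPM divided by median ratio factors, these markers summed to less at 8 than at 0 dpa. Control epidermis at 8 dpa had 1896 and 2044 TPM of them, and CDH1 and PERP were the markers with the highest levels in ST at 8 dpa after KRT12. Their part in the ST levels of members was not tested.

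Some members were higher under MS-275 in ST at 3 dpa. Of 182 tested, 14 rose relative to DMSO (7.69%, against 2.86% of all transcripts) and 1, without a symbol, fell (0.549%, against 0.616%). Both MS-275 replicates lay above both DMSO replicates for 81 of the 200 members (40.5%), against 32.5% of the 20918. KERA had 7.97 and 5.77 TPM with MS-275, against 0.47 and 0.96 TPM with DMSO (log2 difference 3.15, SE 0.34, adjusted p = 0.00879 in limma), and GNMT had 52.7 and 140 TPM, against 11.9 and 12.1 TPM (2.83, SE 0.39, adjusted p = 0.015).

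Of 6 mucosal transcripts 3 were called, which were MUC5B at rank 22, UMOD and LYPD2, the last with 0.92 and 0.76 TPM while listed at 0 in both DMSO libraries. FREM2, a protein of the epithelial basement membrane, NEURL3, ACOD1 at rank 170 and CCL4, a chemokine of monocytes, rose as well, which made 2 calls of 12 matrix and 1 of 13 interferon transcripts. In the same libraries all 8 epidermis marker transcripts and 23 of 28 keratin and cornification transcripts rose, and KRT12 had 86.2 and 325 TPM with MS-275, against 1.17 and 3.32 TPM with DMSO. Their part in the result was not tested. Leaving out MS-275 replicate 2 left 3 of the higher calls, KERA and GNMT among them, leaving out DMSO replicate 1 left 4, and leaving out DMSO replicate 2 gave 22.

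At 8 dpa in ST most calls were in the other direction. With MS-275, 12 of 182 members were lower than with DMSO (6.59%, against 0.826% of all transcripts) and 1, without a symbol, was higher (0.549%, against 0.434%). The median over the members was −1.16, and that over all transcripts was −0.33. On TPM divided by median ratio factors 5 were lower and 2 higher, against 0.107% and 0.403%, with a median of −0.74 over the members and 0.01 over all transcripts. On unscaled TPM both MS-275 replicates lay below both DMSO replicates for 130 of the 200 members (65%), close to the 62.2% of the 20918. At least 4-fold lower means were found for 28.5% of the members, against 4.52% of the 20918.

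CTSK at rank 89 had 1.01 and 1.10 TPM with MS-275, against 420 and 387 TPM with DMSO (−8.45, SE 0.37, adjusted p = 0.000241 in limma), and SFTPC had 0.52 and 0.14 TPM, against 37.0 and 37.4 TPM (−6.60, SE 0.74, adjusted p = 0.0171). Summed over its 5 transcripts, CTSK differed far less, with 1018 and 1406 TPM with MS-275, against 2614 and 2456 TPM with DMSO. Calls with a symbol also included MUC5B at ranks 22 and 62, PRSS27 at rank 67, CNFN (cornifelin, of the cornified envelope), STC2, MMP13 at rank 11 and FBLN1 (fibulin-1, of the matrix). The CNFN sum over 2 transcripts did not follow its member, with 258 and 257 TPM with MS-275, against 263 and 253 TPM with DMSO. None of the 13 interferon transcripts and none of the 7 leukocyte transcripts was called, with medians of −0.57 and −1.08.

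Members of the interferon and chemokine families lay on both sides of DMSO in ST at 8 dpa. ACOD1 at rank 170 had 68.2 and 77.2 TPM with MS-275, against 38.1 and 36.9 TPM with DMSO, and CCL4 at rank 159 had 17.1 and 15.3 TPM, against 7.79 and 7.15 TPM, while GBP1 at rank 46 had 12.7 and 18.1 TPM, against 31.4 and 28.8 TPM, and none of these differences passed the test (adjusted p = 0.203, 0.0523 and 0.235 in limma). The KAZALD1 member had 0.09 and 0.14 TPM, against 458 and 398 TPM, and was not called either (adjusted p = 0.0777), with a difference of −10.97 and an SE of 2.52, and its ST replicates with DMSO at 3 dpa had 0.08 and 185 TPM. Summed over its 3 transcripts, KAZALD1 had 1033 and 1103 TPM with MS-275, against 1652 and 1566 TPM with DMSO. KRT12 had 6.75 and 7.49 TPM with MS-275, against 98.3 and 99.1 TPM with DMSO, and 1 of 8 epidermis marker transcripts was called lower. Their part in the result was not tested. Without any one of the 4 libraries a single call was left, CTSK at rank 89.

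**Figure D5:**
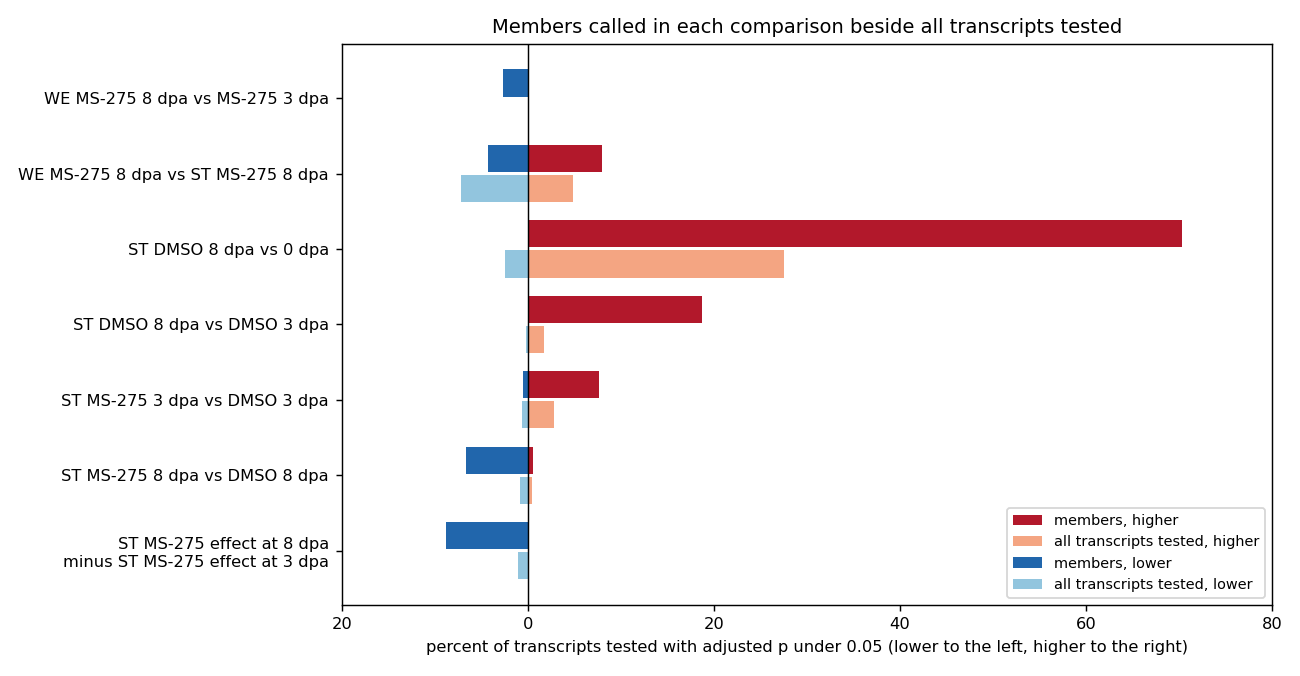
Percent of transcripts tested that were called in limma (adjusted p below 0.05) in each of the 7 tested comparisons, for the members (dark bars) and for all transcripts tested (light bars below them); bars to the right count higher and bars to the left lower transcripts. The comparison of 8 with 0 dpa in ST with DMSO has the longest bars (70.3% of members, 27.5% of all transcripts).

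The change of the MS-275 effect between times was tested itself in ST. Relative to its effect at 3 dpa, the effect of MS-275 at 8 dpa was lower for 16 of 182 members (8.79%, against 1.1% of all transcripts) and higher for none (against 0.138%), with 4 higher at an unadjusted p below 0.05. On TPM divided by median ratio factors 6 were lower and none higher, against 0.113% and 0.0594%. The median over the members was −1.97 and that over all transcripts was −0.42.

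Of the 16, 11 had a symbol, with SFTPC, CTSK and MUC5B among those furthest apart. UMOD in ST had 0.04 TPM in each MS-275 library, against 0.33 and 0.25 TPM with DMSO at 8 dpa, and 0.48 and 1.11 TPM with MS-275, against 0 and 0.02 TPM with DMSO at 3 dpa. Mucosal transcripts gave 4 of 6 calls, matrix transcripts 4 of 12 and interferon and leukocyte transcripts none. Among other transcripts of the lists, 32 of 90 matrix, 16 of 28 keratin and 7 of 8 epidermis marker transcripts were lower and none higher. Without any one library of 8 dpa, or without MS-275 replicate 2 at 3 dpa, 1 or 2 calls were left. Without replicate 1 of DMSO at 3 dpa there were 10, and without its replicate 2 there were 29.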

How the data were processed

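Reads of 20 stranded poly-A libraries were trimmed (cutadapt), placed on a transcriptome assembly (Bowtie2) and estimated per transcript (RSEM), per the submitters' notes; the authors deposited TPM values with 2 decimals and no counts, and no column was left aside. Members followed the rule in the opening paragraph. limma 3.58.1 (R 4.3.3) was fitted to log2(TPM + 0.1) with a variance trend and no block, on 10 samples per tissue or on all 20 samples between tissues, for transcripts above 0 in at least 50% of them, with two-sided tests and Benjamini-Hochberg adjustment over all transcripts tested. Scripts were tested on simulated data. Members and lists were chosen with earlier results of these data known. Members with a symbol were named if among the 25 symbols ranked highest, the 5 largest called rises or falls of a comparison or the first 5 of a list, with both neighbours of the threshold. A member without a symbol at rank 27, GNMT, HFE, BATF3, NEURL3, CCL4, CCL3L1, PIGR, CNFN and ATPAF1 were named after their values were seen. Alternatives were adding 1 TPM before the log, keeping transcripts that averaged 1 TPM or more, no filter, median ratio scaling, no trend, a replicate block, leaving out each replicate and, chosen after seeing the data, members without split replicates, a block of same-numbered epidermis and ST samples and TPM summed by symbol. One member is counted but not reported here.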

Additional observations from a re-analysis of the deposited data

Results flagged for a closer look

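For 10 named members the effect of MS-275 in ST differed between 8 and 3 dpa in the interaction test of limma, each being lower at 8 dpa. On the log2(TPM + 0.1) scale the difference of the effects was −9.74 for SFTPC, −8.78 for CTSK (rank 89), −6.99 for MUC5B (rank 22) and −3.52 for MUC5B (rank 62). It was −4.95 for PRSS27 (rank 67), −4.90 for KERA, −4.86 for LYPD2, −4.41 for UMOD (rank 80), −4.32 for FREM2 and −4.11 for MMP13 (rank 11). All 10 had less than 1 TPM in both ST libraries with DMSO at 3 dpa, so the size of each difference depends on the pseudocount. CTSK at rank 89 was not called between treatments at 3 dpa, where it had in ST 0.58 and 0.53 TPM with MS-275, against 0.32 and 0.55 TPM with DMSO. Summed over its 5 transcripts, CTSK had in ST at 3 dpa 495 and 276 TPM with MS-275, against 208 and 413 TPM with DMSO. At 8 dpa these sums were 1018 and 1406 TPM, against 2614 and 2456 TPM.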

How the results depend on the processing

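The balance of called members turned for the epidermis over ST with MS-275, where higher calls outnumbered lower ones (15 and 8) but not with a pseudocount of 1 or without replicate 1 of either tissue. The pseudocount of 1 gave 8 lower members for the epidermis with MS-275 at 8 over 3 dpa, 9 higher and 12 lower for the epidermis over ST with MS-275, 52 higher for ST with DMSO at 8 over 3 dpa, 2 lower for MS-275 over DMSO in ST at 3 dpa, 3 higher and 40 lower at 8 dpa, and 1 higher and 31 lower for the change of that effect. Restricting the fit to transcripts averaging 1 TPM or more, the epidermis with MS-275 at 8 over 3 dpa had 10 lower, MS-275 over DMSO in ST at 8 dpa had 3 higher and 20 lower, and its change had 1 higher. Median ratio scaling gave 73 and 9 higher for ST with DMSO at 8 over 0 and 8 over 3 dpa, 2 higher and 5 lower for MS-275 over DMSO in ST at 8 dpa, and 6 lower for its change. Without the trend the counts were 1 lower for the epidermis at 8 over 3 dpa, 16 higher for ST with DMSO at 8 over 3 dpa, and 0 higher for MS-275 over DMSO in ST at 8 dpa. Samples compared within a tissue came from different animals and shared only a number (correlations of their deviations −0.12 to 0.23), and with the replicate block 0 were lower for the epidermis at 8 over 3 dpa, 12 higher for ST with DMSO at 8 over 3 dpa, 9 higher for MS-275 over DMSO in ST at 3 dpa, 0 higher and 3 lower at 8 dpa, and 10 lower for the change, while the block moved no other count by over 1.5 times. Epidermis and ST samples with matching numbers had correlations of 0.42 and 0.27 with MS-275 at 3 and 8 dpa and 0.06 with DMSO at 8 dpa, and a block of these pairs, chosen after seeing the data, gave 15 higher and 7 lower for the epidermis over ST with MS-275. Among members without split replicates 3 were lower in the epidermis at 8 over 3 dpa. Leaving out each replicate gave 0 to 1 lower for the epidermis at 8 over 3 dpa, 6 to 12 higher and 3 to 7 lower for epidermis over ST, 89 to 113 higher for ST at 8 over 0 dpa, 1 to 32 higher at 8 over 3 dpa, 3 to 22 higher and 0 to 2 lower for MS-275 over DMSO in ST at 3 dpa, 0 higher and 1 lower at 8 dpa, and 1 to 29 lower for the change. The cause of these shifts was not tested. Of the 200 transcripts, 139 to 173 stayed when an epidermis replicate was left out, 138 with a pseudocount of 1 and 165 with scaling; 28 of 50 symbols kept the last score when summed. Calls of single named members held in 175 and were lost in 17 refits under other settings, and held in 74 and were lost in 68 refits without a replicate. Unknown depth limits low members.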
